A study of Mus musculus with 22 samples.

Results

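The mice described here were chosen by a readout, their levels of 4 neutrophil genes in mammary tissue. All 22 mice of the study were ranked by a score, the mean of log2(CPM + 1) over S100a8, S100a9, Csf3r and Cxcr2, where CPM is a gene's reads scaled to the same total in every library. The 6 mice ranked highest and the 6 mice ranked lowest, 12 of the 22, were compared across all other genes. The 10 mice ranked between them entered a separate comparison.

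RNA came from the left mammary fat pad number 4 of female C57BL/6J mice, 7 to 8 weeks old, that had been engrafted there with 100000 EO771 cells. EO771 is a mammary cancer line of the same strain, here carrying firefly luciferase. For 2 weeks before engraftment each mouse had either a running wheel on a hub or the hub alone, and it kept that housing until the tissue was taken 24 hours after engraftment. Liposomes holding either PBS or clodronate, a drug that kills phagocytes that take the liposomes up, were given into a vein 24 hours before engraftment and again at engraftment. The groups were 6 control mice with PBS liposomes, 6 wheel mice with PBS liposomes, 5 control mice with clodronate liposomes and 5 wheel mice with clodronate liposomes. Each library holds a piece of whole tissue, with the mouse's own cells and the engrafted cells together. In such bulk samples fewer cells of a type and less RNA per cell cannot be told apart.

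Neutrophils are short-lived white cells made in the bone marrow under the growth factor G-CSF, whose receptor is encoded by Csf3r. They leave the marrow and enter tissue along gradients of chemokines that bind Cxcr2, and they carry a large store of the paired calcium-binding proteins S100a8 and S100a9. In mammary tissue that has just received cancer cells they are among the first cells to arrive from the blood. S100a8 and S100a9 are also made by some monocytes and by stressed keratinocytes of the skin.

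Libraries held 13256467 to 20484578 reads, with a median of 16293026. The 6 highest mice had 13701891 to 16464198 reads (median 15841722) and the 6 lowest had 13644835 to 20484578 (median 16970197), so the depths overlapped. Values under 1 CPM had been set to 1, a floor that stands for at most 13 to 20 reads depending on the library. Between 73.4% and 76.0% of the listed genes sat at this floor in each mouse. A difference from a group at the floor is therefore a lower bound.

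The ranking genes were close to that floor in every mouse. In the 6 highest mice S100a8 ran from 1.94 to 8.86 CPM with a median of 4.72, and in the 6 lowest mice from the floor to 1.59 CPM with the median at the floor. S100a9 ran from 1.09 to 5.72 CPM (median 3.42) in the highest mice and was at the floor in all 6 lowest mice. Both genes had chosen the mice, so the gap between the groups is a description and not a result. The largest value of any ranking gene, 8.86 CPM of S100a8 in control mouse 3 with clodronate liposomes, came from 127 reads.

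The receptors were seen in few mice. Csf3r was above the floor in 1 of the 22 mice, at 1.28 CPM from 23 reads in control mouse 6 with PBS liposomes, which is in neither group. Cxcr2 was above the floor in 4 mice, at 4.43 and 3.46 CPM in wheel mice 4 and 3 with clodronate liposomes, which are among the 6 highest, and at 3.15 and 1.54 CPM in 2 of the mice between. All 4 mice with Cxcr2 also had a high level of lymphocyte genes, described with the other cell types. S100a8 was above the floor in 15 mice and S100a9 in 11. Both were above it in 9 mice, S100a8 alone in 6, S100a9 alone in 2 and neither in 5. The label of high and low neutrophil genes is not borne out by these values, since the defining receptors are mostly at the floor and the other values are small. In the 6 highest mice S100a8 and S100a9 had 15 to 127 reads each, and Cxcr2 had 73 and 57 reads in wheel mice 4 and 3 with clodronate liposomes. Ranked on S100a8 and S100a9 alone, 5 of the 6 highest mice stay, and wheel mouse 4 with clodronate liposomes is not among them. The groups are therefore called by their rank.

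**Figure D1:**
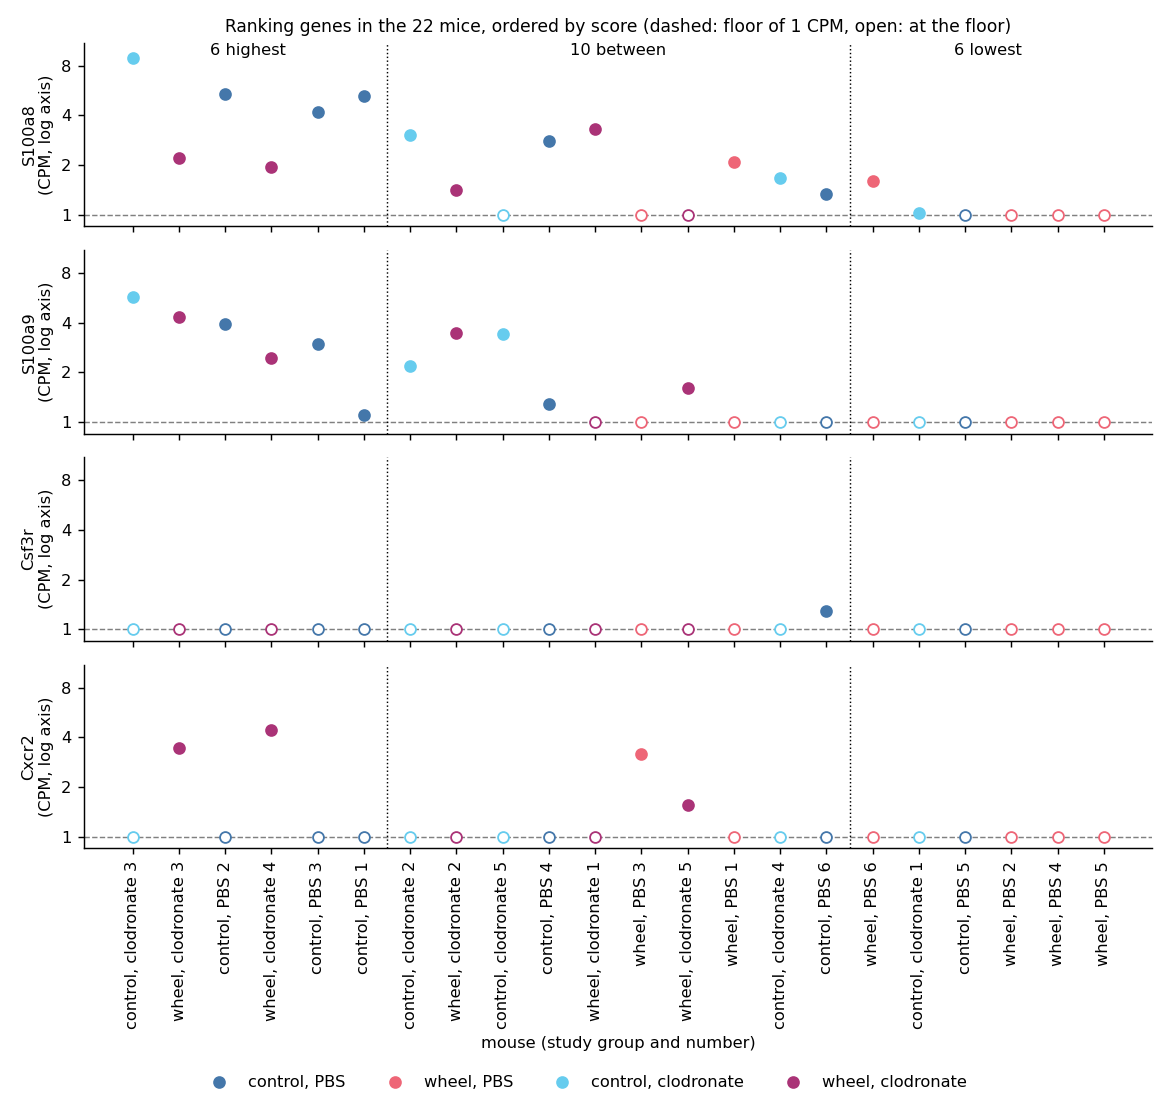
CPM (log axis) of S100a8, S100a9, Csf3r and Cxcr2 in each of the 22 mice, ordered by score, with open points at the floor of 1 CPM and colours for the 4 study groups. Csf3r is above the floor in 1 mouse and Cxcr2 in 4, so S100a8 and S100a9 set most of the order and Cxcr2 raises those 4 mice.

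The scores ran from 1, the value with all 4 genes at the floor, to 2.01. The 6 highest were control mouse 3 with clodronate liposomes at 2.01, wheel mouse 3 with clodronate liposomes at 1.81, control mouse 2 with PBS liposomes at 1.74, wheel mouse 4 with clodronate liposomes at 1.69, and control mice 3 and 1 with PBS liposomes at 1.59 and 1.43. The mouse just outside this group, control mouse 2 with clodronate liposomes, had 1.42. Among the 6 lowest, control mouse 5 and wheel mice 2, 4 and 5 with PBS liposomes had all 4 genes at the floor. Wheel mouse 6 with PBS liposomes reached 1.09 with 28 reads of S100a8, and control mouse 1 with clodronate liposomes reached 1.00 with 21 reads of S100a8. The mouse just outside, control mouse 6 with PBS liposomes, had 1.10. Both borders thus separate mice with nearly equal scores.

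S100a8 and S100a9 lie near each other on chromosome 3 and encode subunits of the same protein, and both are in the score. Their promoters, 250 bases before to 50 after the transcription start as RefSeq gives it on the mouse build GRCm38.p6, are shown because these genes carry most of the score. S100a8 is on the forward strand at chr3:90668821-90669120 and S100a9 on the reverse strand at chr3:90695672-90695971. Capitals mark matches, on either strand, to TATAAA (the letters, wherever they lie, of the TATA box), TTNNGNAA (a loose form of the site of C/EBP factors, which act in myeloid cells) and GAGGAA (letters preferred by the myeloid factor PU.1).
S100a8: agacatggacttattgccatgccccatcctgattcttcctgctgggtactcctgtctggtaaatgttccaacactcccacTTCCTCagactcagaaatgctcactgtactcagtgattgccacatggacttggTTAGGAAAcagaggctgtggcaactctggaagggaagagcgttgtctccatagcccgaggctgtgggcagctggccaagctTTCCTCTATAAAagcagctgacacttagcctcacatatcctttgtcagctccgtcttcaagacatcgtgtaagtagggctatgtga
S100a9: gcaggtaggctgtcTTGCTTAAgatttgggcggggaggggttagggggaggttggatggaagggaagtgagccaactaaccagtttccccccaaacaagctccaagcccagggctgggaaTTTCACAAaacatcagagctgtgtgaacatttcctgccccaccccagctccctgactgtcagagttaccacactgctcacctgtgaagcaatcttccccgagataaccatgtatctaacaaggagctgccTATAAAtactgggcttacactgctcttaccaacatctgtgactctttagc
The S100a8 promoter holds 1 match to TATAAA, 1 to TTNNGNAA and 2 to GAGGAA, of which the second directly adjoins TATAAA. The S100a9 promoter holds 1 match to TATAAA, 2 to TTNNGNAA and 0 to GAGGAA. Of 32851 promoters of this length, 13.6% hold TATAAA, 40.7% hold TTNNGNAA and 28.3% hold GAGGAA. The match to TATAAA begins at base 221 of the S100a8 window, before the transcription start, and at base 251 of the S100a9 window, which is the annotated start itself and not upstream of it. These are matches of letters only.

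The 6 highest and 6 lowest mice were unevenly spread over activity and liposome. Of the 6 highest, 4 were control mice and 2 had a wheel, and 3 had PBS and 3 had clodronate liposomes. Of the 6 lowest, 2 were control mice and 4 had a wheel, and 5 had PBS and 1 had clodronate liposomes. By study group, the highest mice were 3 control mice with PBS, 1 control mouse with clodronate and 2 wheel mice with clodronate liposomes, with 0 of the 6 wheel mice with PBS liposomes among them. The lowest mice were 4 wheel mice with PBS, 1 control mouse with PBS and 1 control mouse with clodronate liposomes, with 0 of the 5 wheel mice with clodronate liposomes. The 10 mice between were 5 control and 5 wheel mice, 4 with PBS and 6 with clodronate liposomes. When the mice were ranked on S100a8 and S100a9 alone, 5 of the 6 highest were control mice and 1 had a wheel, with 2 control mice and 1 wheel mouse among the 3 with clodronate liposomes, and the counts of the 6 lowest did not move. Of the 5 mice with Csf3r or Cxcr2 above the floor, 4 had a wheel and 3 had clodronate liposomes. The counts by activity thus turned with the genes used. With upper-quartile scaling 5 of the 6 highest and 4 of the 6 lowest mice stayed. The highest then held 4 mice with clodronate liposomes and the lowest 3 with a wheel. With no pseudocount the highest also held 4 mice with clodronate liposomes.

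Scores overlapped among all 4 study groups. The median score was 1.35 in control mice with PBS (1 to 1.74), 1.05 in wheel mice with PBS (1 to 1.26), 1.28 in control mice with clodronate (1.00 to 2.01) and 1.36 in wheel mice with clodronate liposomes (1.18 to 1.81). S100a9 was above the floor in 4 of 12 mice with PBS liposomes and in 7 of 10 with clodronate liposomes. In wheel mice with PBS liposomes it was at the floor in all 6.

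**Figure D2:**
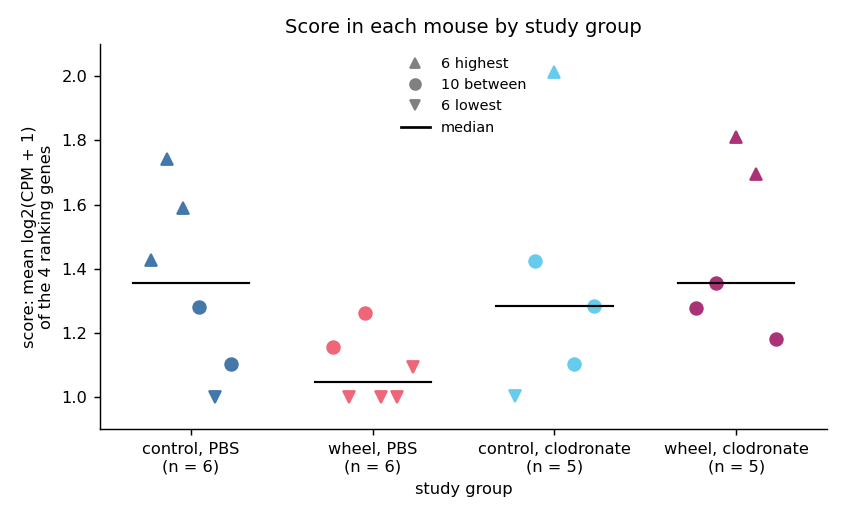
Score (mean log2(CPM + 1) of the 4 ranking genes) of each mouse in the 4 study groups, with the median as a line and the symbol giving its place in the ranking. The groups overlap, and wheel mice with PBS liposomes have the lowest median, 1.05.

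The study's own labels were compared in all 22 mice with limma, a linear model, over 15136 genes. The ranking genes are left out of these counts, as of every count, and their results by label are not reported here. Of the 34 neutrophil list genes tested, 0 passed an adjusted p of 0.05 in the wheel comparison, in the clodronate comparison or in the interaction. Over all genes, limma gave 0 genes for the wheel (0%) with 1224 (8.09%) at an unadjusted p under 0.05. For the interaction it gave 0 genes (0%) with 1147 (7.58%) at an unadjusted p under 0.05. For clodronate 31 genes passed (0.205%), with 1578 (10.4%) at an unadjusted p under 0.05. The 31 became 12 with upper-quartile scaling and ranged from 9 without control mouse 3 with clodronate liposomes to 146 without control mouse 1 with clodronate liposomes.

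The comparison of the 6 highest with the 6 lowest mice asks which other genes go with the score, and so with S100a8, S100a9 and Cxcr2, in the same libraries. Lymphocyte and lymph node genes were high in 3 of the 6 highest mice, of which 2 are the mice with Cxcr2 above the floor. Ranked on S100a8 and S100a9 alone, 2 of these 3 mice stay among the highest. At an unadjusted p under 0.05, 6 of 10 tested genes of the mammary epithelium were lower, beside 3.58% of all genes. Of 10 genes of dividing cells 6 were higher, beside 8.00% of all genes. With the replicate number as a replicate block each list had 1 of 10, beside 183 lower and 322 higher of 15136 genes. That fit takes its difference from the mice numbered 1, 2 and 4 alone. The mice numbered 3 were all among the highest and those numbered 5 and 6 all among the lowest. Fewer calls or a turned sign with the block therefore come from a smaller set of mice, here and below. Of 52 neutrophil genes outside the ranking, 12 were at the floor in all 22 mice, among them Ly6g, Mpo and Camp. Others were above it in a few mice. Retnlg was above it in 3 highest and 1 lowest mice and Ngp in 1 highest mouse. Elane was above it in 2 lowest mice and Mmp8 in 1, each in 0 highest mice.

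No gene passed the test in this comparison. Of 15136 genes, limma gave 0 past an adjusted p of 0.05 (0%), and the smallest adjusted p was 0.234. At an unadjusted p under 0.05, 1211 genes were higher in the highest mice (8.00%) and 542 lower (3.58%), and the median difference over all genes was 0.06 on the log2 scale. With activity and liposome as covariates limma again gave 0 genes, with 1404 higher and 435 lower at an unadjusted p under 0.05. With upper-quartile scaling the split turned, with 761 higher and 999 lower. Without the 3 highest mice with a high lymphocyte list, 710 genes were higher (4.69%) and 436 lower (2.88%). Without control mouse 3 with PBS liposomes 2 genes passed, without wheel mouse 4 with PBS liposomes 1 gene passed, and without wheel mouse 3 with clodronate liposomes 805 genes were higher.

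The 6 genes higher in the highest mice with the smallest p did not pass. Gm2000, a predicted gene, ran from 55.5 to 89.0 CPM (median 71.7) in the highest mice and from 39.2 to 47.0 CPM (median 41.0) in the lowest, a difference of 0.78 (SE 0.13, adjusted p = 0.234). Rps12-ps9, annotated as a copy of a ribosomal protein gene, ran from 44.9 to 73.4 CPM (median 58.6) against 24.8 to 39.0 CPM (median 29.6), a difference of 0.90 (SE 0.17). These 2 genes did not overlap between the groups. Rpl36a-ps2 was higher by 0.77 (SE 0.15) and Rpl10a-ps1 by 0.81 (SE 0.16) without overlap, and Rps12-ps4 by 1.06 (SE 0.21) with overlap. Reads of processed copies are hard to tell from those of the parent gene, so the source of these reads is uncertain. Mbd2, which binds methylated DNA, ran from 22.0 to 35.4 CPM (median 32.5) against 15 to 19.5 CPM (median 17), a difference of 0.82 (SE 0.15, adjusted p = 0.234). Its groups did not overlap.

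The 6 genes lower in the highest mice with the smallest p had no overlap between the groups, and none passed. S100a1, a calcium-binding protein of the S100 family that was not used in the ranking, ran from 61.0 to 106 CPM (median 85.9) in the highest mice and from 110.5 to 224 CPM (median 159.6) in the lowest, a difference of -0.91 (SE 0.17, adjusted p = 0.234). Aqp5, a water channel of glandular epithelium, ran from 2.16 to 11.6 CPM (median 5.24) against 12.6 to 31.9 CPM (median 21.0), a difference of -1.70 (SE 0.33). Smim22, a small membrane protein, ran from 2.16 to 13.6 CPM (median 7.15) against 18.1 to 32.4 CPM (median 22.5), a difference of -1.56 (SE 0.32). All 6 highest mice had less of each of these genes than any of the 6 lowest. Phka2, a subunit of phosphorylase kinase, was lower by -1.28 (SE 0.26), Plekha6 by -1.12 (SE 0.21), and Tmed3, of the early secretory pathway, by -0.86 (SE 0.18, adjusted p = 0.274). Over all genes tested, 53 were higher and 33 lower in the highest mice without overlap.

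Neutrophil genes outside the ranking were gathered in 3 lists of 52 genes in all. Of these, 12 were at the floor in all 22 mice, 34 passed the filter of being above 1 CPM in at least 5 mice, and 6 were above the floor in 1 to 3 mice. Of the 34 tested, 5 were higher and 3 lower at an unadjusted p under 0.05, against 8.00% and 3.58% of all genes. Their median difference was 0.20, beside 0.06 over all genes, with 20 positive and 14 negative. No member passed an adjusted p of 0.05. The shares of 8.00% higher and 3.58% lower of all genes are the background to the counts given next for 6 against 6 mice. Other fits have their own background. Without the 3 highest mice with a high lymphocyte list it was 4.69% higher and 2.88% lower. Of 15136 genes, 322 were higher and 183 lower with the replicate block, and 761 and 999 with upper-quartile scaling. Ranked on S100a8 and S100a9 alone, 707 were higher.

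Granule proteins are packed in neutrophil precursors in the marrow. Mpo, Ctsg, Ms4a3, Camp, Cd177 and Olfm4 were at the floor in all 22 mice, Ngp was above it in 1 mouse and Mmp8 in 2. Of the 6 members tested, 1 was higher and 2 lower at an unadjusted p under 0.05. Their median of -0.23 was -0.99 among members averaging 5 CPM or more, -0.39 with the replicate number as a replicate block and -0.11 with the 8 highest against the 8 lowest mice. Leaving out each mouse moved it from -0.33 to -0.13, and without the lymphocyte-high mice 0 were higher. The summed CPM of the list was led by Ltf and ran from 33.9 to 135 (median 66.1) in the highest mice and from 120.2 to 156 (median 132) in the lowest, and the groups overlapped. Ltf, lactoferrin, an iron-binding protein of granules that mammary epithelium also makes, ran from 7.86 to 94.9 CPM (median 26.4) against 61.9 to 90.2 CPM (median 78.8), a difference of -1.53 (SE 0.41, adjusted p = 0.300). Its groups overlapped through control mouse 1 with PBS liposomes alone. Lcn2, which binds iron-carrying siderophores and is also made by epithelium, was lower by -0.99 (SE 0.24, adjusted p = 0.274), at 15.7 to 41.7 CPM (median 21.3) against 34.5 to 56.6 CPM (median 48.0). Pglyrp1, which binds bacterial peptidoglycan, had medians of 1.96 CPM and the floor and was higher by 0.80 (SE 0.36, adjusted p = 0.415). Without the 3 lymphocyte-high mice that difference was -0.04. The gelatinase Mmp9 was higher by 0.55 (SE 0.45, adjusted p = 0.663), or 0.29 to 0.83 when each mouse was left out, and Prtn3 had medians of 5.64 and 7.23 CPM.

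Among receptors and surface proteins, Ly6g, the antigen used to sort mouse neutrophils, was at the floor in all 22 mice, as were Cxcr1, Fpr1 and Trem3. Trem1 was above the floor in 1 mouse and Mmp25 in 3. Of the 10 tested, 2 were higher at an unadjusted p under 0.05 and 0 lower. Their median of 0.09 ran from 0.0042 to 0.37 when each mouse was left out, was -0.02 with the replicate number as a replicate block, and was 1.32 among members with a mean of at least 5 CPM. It was 0.17, with 0 higher, without the lymphocyte-high mice. Itgb2, the shared chain of leukocyte integrins, ran from 9.76 to 37.2 CPM (median 15.6) against 1.42 to 12.7 CPM (median 6.14), a difference of 1.6 (SE 0.45, adjusted p = 0.315), and 0.98 without the lymphocyte-high mice. Its groups overlapped, and other leukocytes carry it too. Il1r2, a decoy receptor for interleukin-1, was higher by 1.04 (SE 0.70, adjusted p = 0.594), or 0.67 to 1.49 when each mouse was left out, and Itgam, which pairs with Itgb2 in the integrin Mac-1, had medians of 17.6 and 14.1 CPM. Fpr2, Clec4d, Clec4e, Pilra and Cd300lf had medians between the floor and 3.79 CPM in both groups.

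Among cytosolic and secreted proteins, 18 of 22 were tested, with 2 higher and 1 lower at an unadjusted p under 0.05 and a median of 0.48. The median was 0.23 when the mice were ranked on S100a8 and S100a9 alone, 0.14 with the replicate block and 0.31 without the lymphocyte-high mice, and ran from 0.27 to 0.63 when each mouse was left out. Cybb, the catalytic part of the oxidase of phagocytes and B cells, was higher by 0.79 (SE 0.36, adjusted p = 0.420), and by 0.01 without the lymphocyte-high mice. Slpi, a protease inhibitor of epithelia and neutrophils, was lower by -0.77 (SE 0.31, adjusted p = 0.377). Retnlg, which circulating mouse neutrophils make in large amounts, reached at most 2.42 CPM in the highest and 1.98 CPM in the lowest mice. Il1b had medians of 1.78 CPM and the floor, and the transcriptional repressor Mxd1 had medians of 19.4 and 12.2 CPM.

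Several members of this list followed skin genes. The protease Asprv1 reached 426 CPM in the highest mice and 232 CPM in the lowest, and the stefin BC100530 reached 334 and 31.9 CPM. Their differences were 1.71 (SE 1.49, adjusted p = 0.688) and 2.19 (SE 1.26, adjusted p = 0.524), and ran from 1.01 to 2.58 and from 1.41 to 2.89 when each mouse was left out. Stfa1 and BC100530 were above the floor in 4 of 6 highest and 2 of 6 lowest mice, the same 6 mice in which the skin keratinocyte list was above 5 as a mean log2(CPM + 1). Asprv1 is also a protease of the upper epidermis, and the part of skin in these values was not tested.

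Most signals that draw or sustain neutrophils were at or near the floor as well. Of 15 genes, Csf3, Il6, Il17a, Il23a and Cxcl3 were at the floor in all 22 mice, Cxcl2 was above it in 2 and Cxcl5 and Csf2 in 1 each. Of the 7 tested, 0 had an unadjusted p under 0.05 and all 7 were positive, or 6 of 7 with upper-quartile scaling. Without the lymphocyte-high mice 2 of 7 were higher at that level, beside 4.69% of all genes, 5 were positive and 2 negative. Their median of 0.28 was 0.08 without control mouse 3 with clodronate liposomes, 0.45 without wheel mouse 2 with PBS liposomes, and 0.08 with the keratinocyte list as a covariate, a setting chosen after seeing the data. Cxcl12, the stromal chemokine that holds neutrophils in the marrow, gave 77.7% of the summed CPM and was higher by 0.40 (SE 0.21, adjusted p = 0.481), or 0.24 to 0.49 when each mouse was left out, at 72.0 to 128 CPM (median 80.2) against 37.3 to 87.3 CPM (median 70.8). The groups overlapped. Cxcl1, a main ligand of Cxcr2, was above the floor in 2 of 6 highest and 2 of 6 lowest mice.

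Lymphocyte genes were high in 3 of the 6 highest mice, in 2 of the 10 between and in none of the 6 lowest. All 12 genes of the list were higher in the highest mice at an unadjusted p under 0.05, none past an adjusted p of 0.05, with a median of 2.15, beside 8.00% of all genes higher. With the replicate block 2 of 12 were at that level, with a median of 2.73, beside 322 of 15136 genes higher. Of the list, Cd79a and Cd22 were above the floor in 5 mice, 3 of the highest and 0 of the lowest. They met the filter only with the highest mice counted and could only come out higher. The summed CPM of the list, led by the antibody heavy chain Ighm (42.9%), ran from 31.0 to 1235 (median 291) in the highest mice and from 25 to 84.6 (median 33.1) in the lowest. It was 1235 and 1223 in wheel mice 3 and 4 with clodronate liposomes and 463 in control mouse 2 with PBS liposomes, and 31.0 to 119 in the other highest mice. The 2 mice between, wheel mouse 5 with clodronate and wheel mouse 3 with PBS liposomes, had 769 and 527 and also had Cxcr2 above the floor. The T cell gene Trbc2 was higher by 2.71 (SE 0.89, adjusted p = 0.351) and Ighm by 1.97 (SE 0.68, adjusted p = 0.360). Cd3e, chosen after its values were seen, was higher by 2.07 (SE 0.65, adjusted p = 0.346). Without those 3 mice the list's median was -0.0013, and with the mice ranked on S100a8 and S100a9 alone it was 0.87, each with 0 of 12 at an unadjusted p under 0.05. The 3 mice were left out for their level of this same list. The fall of its median without them was therefore set by that choice and is not a result.

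The same 3 mice had genes of lymph nodes. Glycam1, a mucin of the high endothelial venules through which lymphocytes enter lymph nodes, ran from 1.53 to 985 CPM (median 221) in the highest mice and from 1.32 to 3.22 CPM (median 1.85) in the lowest, a difference of 4.01 (SE 1.44, adjusted p = 0.368). Summed over the lymph node list, the CPM was 498, 858 and 1197 in the 3 mice and 2.02 to 4.78 in the other 3 highest mice. All 3 list genes tested were higher at an unadjusted p under 0.05, with a median of 2.66. The median was 0.22 without these mice and 0.94, with 0 of 3 at that level, when the mice were ranked on S100a8 and S100a9 alone. Cr2 and Cxcl13, of these genes, were above the floor in 5 and 7 mice, with 3 and 4 of the highest and 0 of the lowest. Both met the filter only with the highest mice counted and could only come out higher. Ccl21a and Ccl19, chemokines of lymph node stroma, were at the floor in all 22 mice. This fat pad holds the inguinal lymph node, and how much of it entered each sample was not tested. Of 6 genes of natural killer and cytotoxic cells 4 were higher at an unadjusted p under 0.05, with a median of 0.87, beside 8.00% of all genes higher. The median was 0.18 without the 3 mice and 0.52, with 1 higher, under that other ranking, beside 707 of 15136 genes higher. With the replicate block 0 of 6 were at that level, and 2 of the 3 lymph node genes were, beside 322 of 15136 genes higher. Dendritic cell genes had 1 of 8 higher, with a median of 0.36, which was -0.05 without the 3 mice and -0.06 when ranked on S100a8 and S100a9 alone. Vcam1 and Icam1, adhesion molecules of vessels and lymph nodes chosen after their values were seen, were higher by 1.26 (SE 0.43) and 0.68 (SE 0.30), and by 0.45 and 0.12 without the 3 mice. The 6 adhesion genes tested had a median of 0.00, and -0.09 with upper-quartile scaling.

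**Figure D3:**
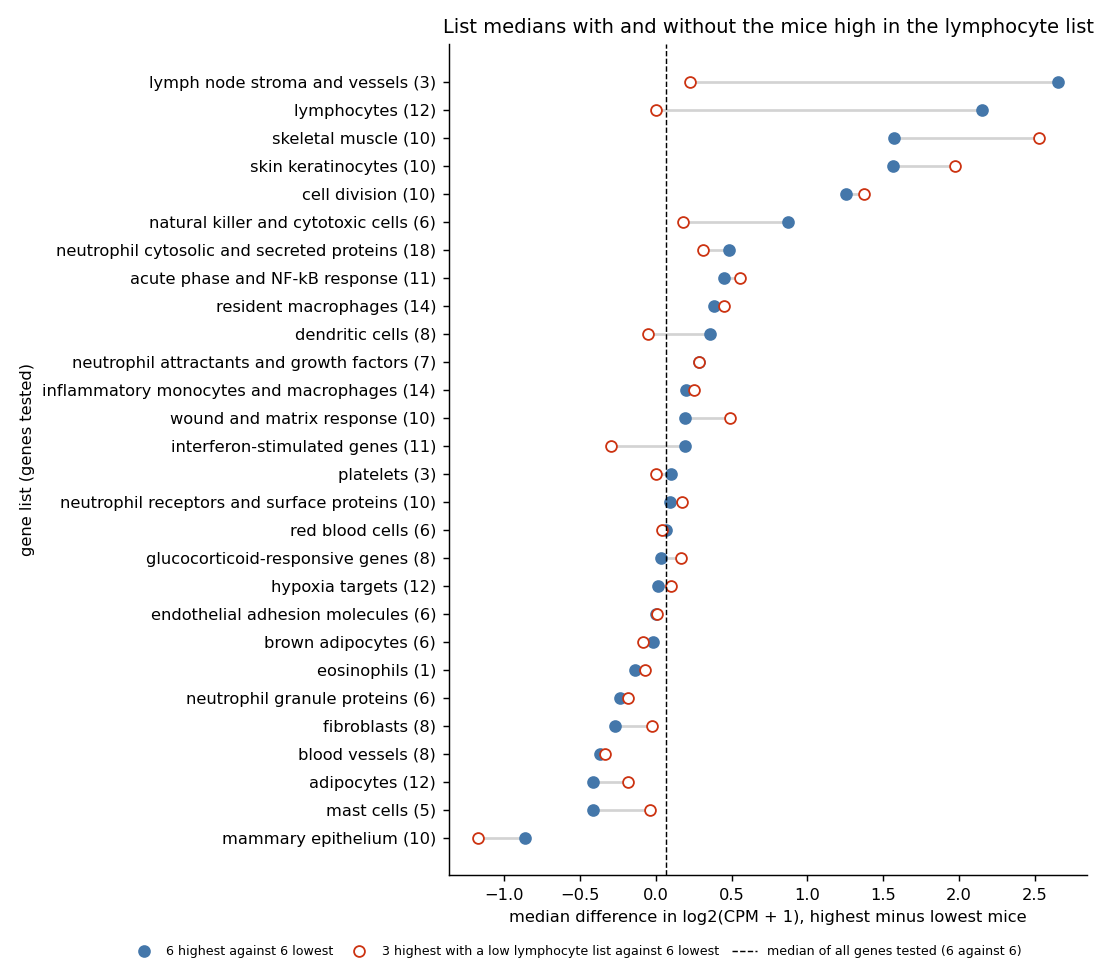
Median difference in log2(CPM + 1), highest minus lowest mice, of the tested genes of each list (number in brackets), for 6 against 6 mice (filled) and without the 3 lymphocyte-high mice (open), with the median of all genes as a dashed line. The lymphocyte and lymph node medians move from above 2 to near 0, and mammary epithelium is lowest with either set of mice. The 3 mice were left out for their lymphocyte list, so the fall of its median was set by that choice.

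Skin and muscle genes varied from mouse to mouse over a wide range. The summed CPM of 10 skin keratinocyte genes, led by Krt10 (32.5%), ran from 26.1 to 12739 (median 2356) in the highest and from 20 to 8191 (median 100) in the lowest mice. The list was above 5 in 4 of 6 highest, 5 of 10 between and 2 of 6 lowest mice. Its median difference was 1.56 with 0 of 10 genes at an unadjusted p under 0.05, and Krt10 was higher by 1.86 (SE 1.78, adjusted p = 0.714). The 10 skeletal muscle genes had summed CPM from 28.3 to 3337 (median 585) against 24.4 to 785 (median 148), a median difference of 1.57, and 0 at an unadjusted p under 0.05. Myh4, the myosin of fast fibres, was higher by 1.75 (SE 1.33, adjusted p = 0.635). When each mouse was left out, the keratinocyte median ran from 0.79 to 2.44 and Krt10 from 1.05 to 2.88, each lowest without control mouse 3 with clodronate liposomes. The muscle median ran from 0.97 to 2.23 and Myh4 from 1.05 to 2.51, each lowest without control mouse 3 with PBS liposomes. The muscle median was 2.53 without the lymphocyte-high mice. The groups overlapped for both lists, and the highest score and the highest keratinocyte sum were both in control mouse 3 with clodronate liposomes. Ranked on S100a8 and S100a9 alone, the medians were 3.12 and 2.63. At an unadjusted p under 0.05, 2 of 10 keratinocyte and 4 of 10 muscle genes were then higher, beside 707 of 15136 genes. With the replicate block, whose difference does not draw on the mice numbered 3, the medians were -0.09 and -0.14. The part of skin or muscle in the dissected tissue was not tested.

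No gene of the mammary epithelium list passed an adjusted p of 0.05. Of 10 tested, 8 were negative and 2 positive, and 6 were lower at an unadjusted p under 0.05 and 0 higher, with a median of -0.86, beside 3.58% of all genes lower. The median was -1.17 without the lymphocyte-high mice, with 6 lower, beside 2.88% of all genes lower. With the replicate block it was -0.26, with 1 lower, beside 183 of 15136 genes lower. The genes named next from this list were chosen after their values were seen. Krt7, a keratin of the luminal cells that line the ducts, ran from 15.6 to 49.3 CPM (median 31.5) against 47.2 to 81.7 CPM (median 69.4), a difference of -1.23 (SE 0.27, adjusted p = 0.274). Krt18, a luminal keratin, ran from 34.9 to 133 CPM (median 83.5) against 117 to 213 CPM (median 124), a difference of -1.01 (SE 0.32, adjusted p = 0.350). Both genes overlapped, Krt7 over a narrow span. Krt8, the partner of Krt18, was lower by -0.73 (SE 0.35), the adhesion molecule Epcam by -0.49 (SE 0.16) and the milk protein gene Csn3 by -0.99 (SE 0.40).

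The basal keratins Krt14 and Krt5, which the gland's basal cells share with skin, had medians of 249 and 229 CPM in the highest and 63.9 and 55.1 CPM in the lowest mice. Their differences were 0.93 (SE 1.02, adjusted p = 0.755) and 0.89 (SE 1.02, adjusted p = 0.767), which fell to 0.27 and 0.29 without control mouse 3 with clodronate liposomes. With the replicate block they turned to -0.23 and -0.13, so that all 10 tested genes of the list were negative. They led the summed CPM, which ran from 418 to 3598 (median 742) in the highest and from 516 to 1792 (median 772) in the lowest mice and overlapped. With the keratinocyte list as a covariate, a setting chosen after seeing the data, the median of the epithelial list was -0.55 and the 2 keratins turned to -0.08 and -0.14.

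No member of the stromal lists passed an adjusted p of 0.05. Of 8 fibroblast genes 3 were lower at an unadjusted p under 0.05, with a median of -0.27, beside 3.58% of all genes lower. Without the lymphocyte-high mice 2 were lower, with a median of -0.02, beside 2.88% of all genes lower. With the replicate block 2 were lower, with a median of -0.46, beside 183 of 15136 genes lower. Col3a1 ran from 337 to 530.2 CPM (median 432) against 439.8 to 886 CPM (median 742), a difference of -0.73 (SE 0.19, adjusted p = 0.297). Col1a1 and Lum, chosen after their values were seen, were lower by -0.70 (SE 0.18) and -0.53 (SE 0.21), while Dcn, the most abundant member, had medians of 589 and 682 CPM. All 8 genes of blood vessels were negative, 1 of them at an unadjusted p under 0.05, with a median of -0.37, beside 3.58% of all genes lower, and with the replicate block 0 were at that level, with a median of -0.24. Acta2, the actin of smooth muscle and of the gland's myoepithelial cells, was lower by -0.67 (SE 0.21, adjusted p = 0.348), at 66.5 to 168 CPM (median 118) against 141 to 269 CPM (median 169.8). The groups overlapped for each of these genes.

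Of 12 fat cell genes, all 12 were negative and 3 were lower at an unadjusted p under 0.05, with a median of -0.41, beside 3.58% of all genes lower. Without the lymphocyte-high mice 0 of 12 were lower at that level, 4 were positive and 8 negative, and the median was -0.18. With the replicate block 0 of 12 were lower at that level, 3 were positive and the median was -0.28. Cfd, the protease adipsin and the most abundant of them, ran from 3597 to 7086 CPM (median 6207) in the highest and from 7326 to 14030.2 CPM (median 8601) in the lowest mice, without overlap, and its test did not pass (adjusted p = 0.523). Brown fat genes had 0 of 6 at an unadjusted p under 0.05 and a median of -0.02, which was 0.25 when ranked on S100a8 and S100a9 alone, 0.19 with the replicate block and -0.09 without the lymphocyte-high mice. The wound list of 10 genes had 1 higher and 2 lower at that level, beside 8.00% and 3.58% of all genes, and 8 were positive. Its median of 0.20 was -0.13 with the replicate block, with 1 higher and 0 lower, beside 322 and 183 of 15136 genes. Without the lymphocyte-high mice it was 0.49, with 2 higher and 1 lower, beside 4.69% and 2.88% of all genes. Tnc, a matrix protein chosen after its values were seen, was higher by 1.58 (SE 0.32, adjusted p = 0.234), at 7.62 to 14.9 CPM (median 11.3) against 1.12 to 5.22 CPM (median 3.26), without overlap. Postn, another matrix protein, was lower by -0.50 (SE 0.18) and the protease Mmp3 by -0.73 (SE 0.25).

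No gene of the cell division list passed an adjusted p of 0.05. Of 10 genes 6 were higher at an unadjusted p under 0.05 and 0 lower, with a median of 1.26, beside 8.00% and 3.58% of all genes. Without the lymphocyte-high mice 3 were higher, with a median of 1.37, beside 4.69% of all genes higher. With the replicate block 1 was higher, with a median of 0.83, beside 322 of 15136 genes higher. Top2a, which untangles DNA before division, ran from 29.7 to 118 CPM (median 77.1) against 3.69 to 131 CPM (median 19.3), a difference of 1.64 (SE 0.60, adjusted p = 0.373). Mki67, chosen after its values were seen, was higher by 1.06 (SE 0.41, adjusted p = 0.377). The summed CPM of the list ran from 94.1 to 319.8 (median 199) against 13.7 to 342 (median 48.3). The groups overlapped, and the highest sum, 342, was in wheel mouse 4 with PBS liposomes, one of the lowest mice by score. Dividing cells may be host or engrafted cells, which these values cannot tell apart.

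Lists of other immune cells had medians between -0.41 and 0.38. Resident macrophage genes had 4 of 14 higher and 0 lower at an unadjusted p under 0.05, beside 8.00% and 3.58% of all genes, with a median of 0.38. Without the lymphocyte-high mice 2 were higher and 1 lower, beside 4.69% and 2.88% of all genes. With the replicate block 1 was higher, with a median of 0.02, beside 322 of 15136 genes higher. The summed CPM of the resident macrophage list, 353 to 542 (median 400.2), overlapped with 231 to 497 (median 316) in the lowest mice. Genes of inflammatory monocytes had 0 of 14 higher and 1 lower, Fn1 (fibronectin) by -0.38 (SE 0.17), with a median of 0.20, which was -0.17 with the replicate block. None were lower without the lymphocyte-high mice. Mast cell genes had 1 of 5 lower, the receptor Kit by -0.93 (SE 0.33), with a median of -0.41. Leaving out the lymphocyte-high mice, 2 of 5 were lower, with a median of -0.04. The 1 eosinophil gene tested, Ear2, the 6 red blood cell genes and the 3 platelet genes had none at an unadjusted p under 0.05, with medians of -0.14, 0.07 and 0.10. The platelet median was -0.08 with the replicate block. The red blood cell median was -0.03 with upper-quartile scaling.

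In the list of the acute phase and NF-kB response, which inflammatory cytokines turn on, no gene passed an adjusted p of 0.05. The sum over the list was not tested. The summed CPM ran from 571 to 676 (median 627) in the highest and from 344 to 549 (median 460.0) in the lowest mice, without overlap, and Nfkbia gave 67.5% of it. The sums of all other lists overlapped. In the mice between, the sum of this list ran from 372 to 717. Nfkbia, the inhibitor that NF-kB itself induces, was higher by 0.51 (SE 0.20, adjusted p = 0.377), at 266 to 569.7 CPM (median 429.6) against 223 to 360.1 CPM (median 288), with overlap. Of 11 genes tested, 2 were higher and 0 lower at an unadjusted p under 0.05, with a median of 0.45, beside 8.00% and 3.58% of all genes. With upper-quartile scaling or with the replicate block 0 were higher. Without the lymphocyte-high mice 3 were higher, beside 4.69% of all genes. Interferon-stimulated genes had 0 of 11 at an unadjusted p under 0.05 and a median of 0.19, which was -0.29 without the lymphocyte-high mice and 0.40 with the replicate block. Glucocorticoid-responsive genes had 2 of 8 higher and a median of 0.03, which was -0.07 with upper-quartile scaling and -0.17 with the replicate block, and 0.16 without the lymphocyte-high mice, with 3 higher. Hypoxia targets had 1 of 12 lower, Bnip3 by -0.53 (SE 0.21), and a median of 0.01, which was -0.08 with upper-quartile scaling and -0.03 with the replicate block. It was 0.10, with 1 higher and 0 lower, without the lymphocyte-high mice.

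**Figure D4:**
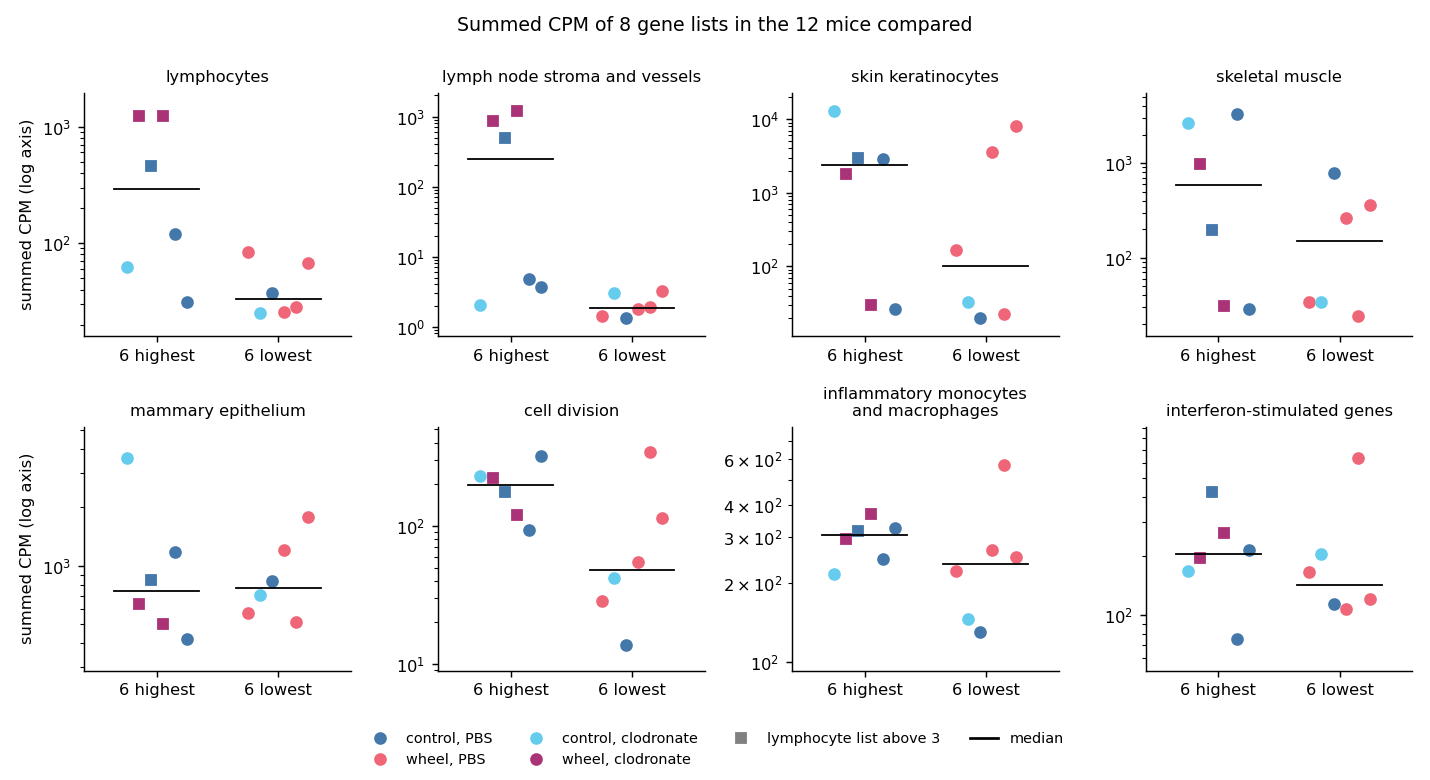
Summed CPM (log axis) of 8 gene lists in the 6 highest and 6 lowest mice, with the median as a line, colours for the study groups and squares for mice whose lymphocyte list is above 3. The 3 squares alone carry the lymph node genes, and skin and muscle genes spread over a wide range in both groups.

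The 10 mice between share no animal with the 12 compared above, so the same genes could be fitted against the score within them. Over these 10 mice limma gave 0 of 15136 genes past an adjusted p of 0.05 (0%), with 1031 positive slopes (6.81%) and 1307 negative slopes (8.64%) at an unadjusted p under 0.05. Without wheel mouse 3 with PBS liposomes 317 genes passed and without wheel mouse 5 with clodronate liposomes 1 gene passed. Those 2 mice are the ones between with a high lymphocyte list. With no pseudocount 87 genes passed.

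Of the 1753 genes with an unadjusted p under 0.05 in the 12 mice, 905 had the same sign in the 10 mice between, 51.6% beside 52.4% of all genes. For the genes higher in the highest mice the share was 37.3% beside 40.0% of all genes counted in that direction. For those lower it was 83.6% beside 69.7%. At an unadjusted p under 0.05 in both sets stood 218 genes, of which 186 had the same sign. These 186 were 10.6% of those in the 12 mice and 7.96% of those in the 10 mice.

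By list, all 10 skin keratinocyte and all 10 skeletal muscle genes had positive slopes in the mice between at an unadjusted p under 0.05, beside 6.81% of all genes, and none passed an adjusted p of 0.05. Control mouse 2 and wheel mouse 2 with clodronate liposomes have the highest scores of the mice between. Their summed CPM was 26895 and 12030 for muscle (next 1758) and 11484.5 and 6481 for keratinocytes (next 3748). How far these mice set the slopes is not reported here. Lymphocyte genes had 0 of 12 and cell division genes 0 of 10 at an unadjusted p under 0.05. Resident macrophage genes, of which 11 of 14 were positive in the 12 mice, had 13 of 14 negative slopes here, 4 of them at that level and 0 positive, with a median of -2.77. Fat cell genes had 5 of 12 negative, brown fat genes 4 of 6 positive, fibroblast genes 3 of 8 negative and wound genes 3 of 10 negative at that level. Of the epithelial list 4 of 10 had negative and 2 positive slopes at that level, beside 8.64% and 6.81% of all genes. Krt18 and Krt7 had slopes of -4.19 and -3.31 in log2 per unit of score, and the positive slopes were those of Krt14 and Krt5, 13.20 and 12.85. Scores in the mice between ran only from 1.10 to 1.42. A full unit of score thus lies beyond their range, and these slopes are not differences seen between mice. Of the 12 genes named above by the smallest p, 10 had the same sign here. Of these, S100a1, Phka2 and Rpl10a-ps1 were at that level, with slopes of -1.66, -2.33 and 2.67. Mbd2 and Plekha6 turned, with slopes of -0.43 and 0.21. Of the 34 neutrophil genes 7 had positive and 2 negative slopes at that level, with a median of -1.52 beside -0.58 over all genes. Stfa1 and BC100530 were among the 7, with slopes of 7.41 and 15.81. Of blood vessel genes 6 of 8 had negative slopes at that level, and of attractants 3 of 7 had positive and 1 negative slopes.

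With the score as a slope over all 22 mice, an alternative that uses the mice of both sets, 17 genes rose (0.112%) and 43 fell (0.284%) past an adjusted p of 0.05. This slope was not refitted with any mouse left out, with other scalings or with covariates. Whether these genes pass without control mouse 3 with clodronate liposomes, which has the highest score, 2.01, was not tested. Among the 17 that rose was Rps12-ps4, at 1.41 in log2 per unit of score (SE 0.23, adjusted p = 0.00438). Among neutrophil list genes Ltf fell, by 2.11 (SE 0.45, adjusted p = 0.0340), and none rose. The falls with the smallest p were those of Smim22, by 2.41 (SE 0.31, adjusted p = 0.000634), Phka2 by 1.89, S100a1 by 1.25 and Aqp5 by 2.60. Of the epithelial list 3 luminal genes fell, Krt7 by 1.71, Cldn3, of the tight junctions, by 1.70, and Krt18 by 1.59. Acta2 fell by 1.18 (SE 0.27, adjusted p = 0.0449).

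The genes named next, from the 43 that fell and the 17 that rose, were chosen after their values were seen. They come from no fixed list, and no theme among them was tested. Prlr, the prolactin receptor, fell by 1.68 (SE 0.31, adjusted p = 0.0113), from 433 to 721 CPM (median 483) in the lowest mice to 119.6 to 397 CPM (median 296) in the highest. Pgr, the progesterone receptor, fell by 2.59 (SE 0.49, adjusted p = 0.0129), with medians of 35.9 CPM in the lowest and 9.99 CPM in the highest mice. Prlr did not overlap between the 6 highest and 6 lowest mice and Pgr did. Krt19, a luminal keratin, fell by 1.68, and the smooth muscle and myoepithelial genes Myh11 and Cnn1 by 1.58 and 1.92. Among those that rose were Hmgb2, a chromatin protein of dividing cells, by 1.89 per unit of score, and Dnase1l3, a nuclease of myeloid cells, by 3.88. The source of these differences, in cell numbers, in the dissected tissue or in expression per cell, was not tested.

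**Figure D5:**
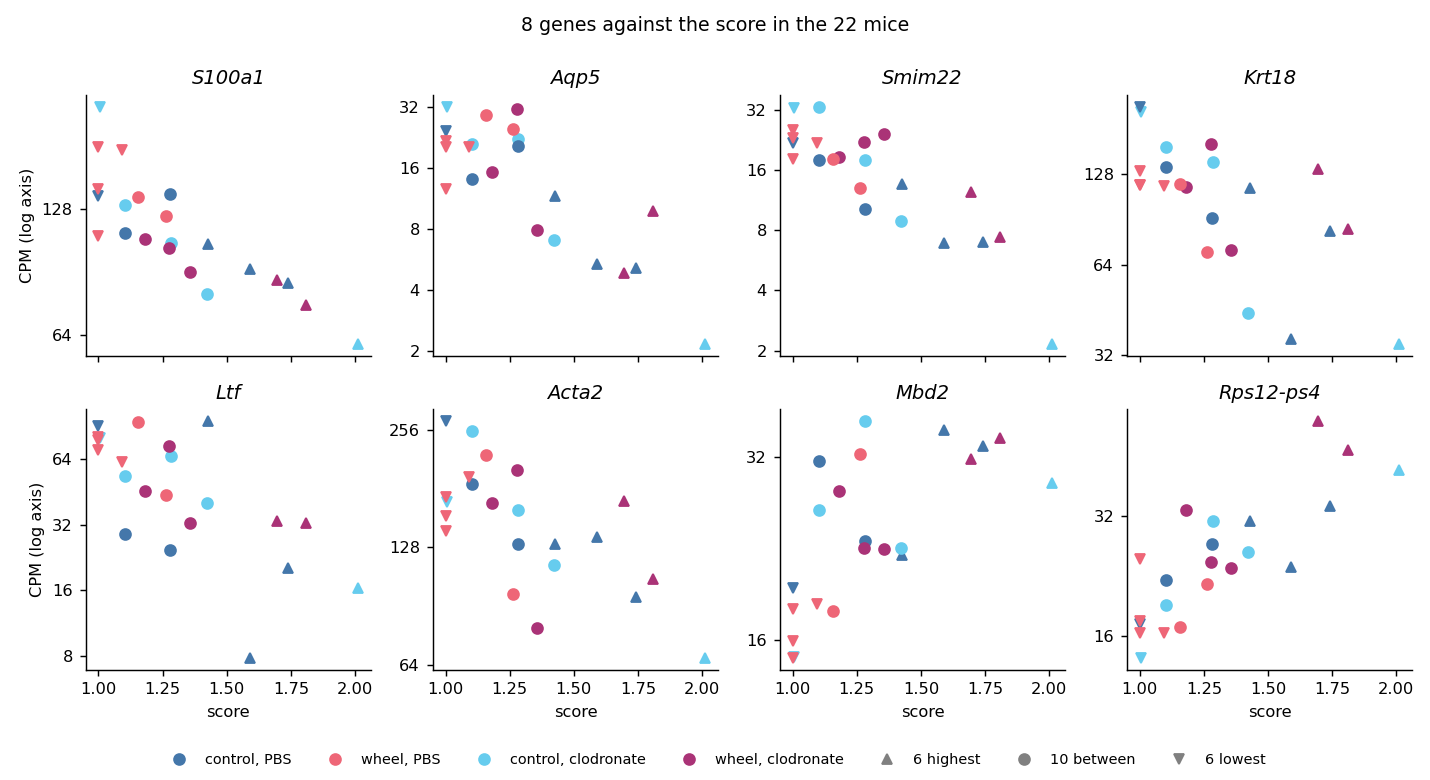
CPM (log axis) of 8 genes against the score in each of the 22 mice, with colours for the study groups and symbols for the place in the ranking. S100a1, Aqp5, Smim22, Krt18, Ltf and Acta2 are lower and Rps12-ps4 higher at high scores. Mbd2 is higher in the 6 highest than in the 6 lowest mice, not past an adjusted p of 0.05, with a slope of -0.43 in the mice between. The mouse with the highest score, 2.01, has the lowest S100a1, Aqp5, Smim22, Krt18 and Acta2.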

How the data were processed

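Per the submitters' processing notes, the authors sequenced QuantSeq 3′ libraries, aligned the reads with STAR 2.5.3a to GRCm38 and deposited for every gene a signal in CPM, floored at 1. How reads were counted is not given in the sources used here. The steps between values gave each library's depth, of which 57.2% to 64.5% had been assigned to genes. Each table listed 52526 distinct symbols. Where a symbol had several rows (106 symbols) the one with the largest mean stood for it, 4 rows naming no gene were left out, and 24 symbols that had turned into dates were kept as listed.

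The 4 ranking genes, the groups of 6 and the filter (above 1 CPM in at least 5 mice) follow the rule in the opening. S100a8 and S100a9 passed the filter and were left out of every count. Members and gene lists were chosen with earlier results of these data known. log2(CPM + 1) was fitted with limma 3.58.1 under R 4.3.3 (moderated variance with a trend, two-sided, p adjusted by Benjamini-Hochberg over all genes fitted), on the 12 ranked mice, on the score in the 10 mice between, and on the 4 study group means. The code was tested on simulated data. Tables and figures used Python 3.11.15 with numpy 2.4.6, pandas 2.3.3 and matplotlib 3.10.9.

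Genes were named by rule. Since fewer than 3 genes passed in a direction, these were the 6 with the smallest p each way among genes with a mean of at least 5 CPM, tested neutrophil and attractant genes, and the most abundant 1 or 2 genes of each other list. Others are said to be chosen after their values were seen. Results of some list members counted in the lists are not reported here. Alternatives were other pseudocounts, filters, scalings, group sizes and rankings, covariates, no variance trend, the replicate number as a block, leaving out the mice with a lymphocyte list above 3 (mean log2(CPM + 1)), and leaving out each mouse.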

Additional observations from a re-analysis of the deposited data

Results flagged for a closer look

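In 68 groups of values, each a measure in a study group or in the 6 highest or 6 lowest mice, a mouse far from the rest of its group was looked for, which chance gives in about 1 in 20 groups. There were 6. Among control mice with clodronate liposomes, mouse 3 had 8.859 CPM of S100a8 and the next mouse 3.048 CPM. The other 5 lie in the 6 lowest mice and are means of log2(CPM + 1) over a list. Wheel mouse 4 with PBS liposomes stood above the others for neutrophil granule proteins (2.091, next 1.95), inflammatory monocytes and macrophages (4.897, next 3.122), interferon-stimulated genes (5.55, next 3.681) and hypoxia targets (5.332, next 4.956). Wheel mouse 6 with PBS liposomes stood above them for natural killer and cytotoxic cells (1.507, next 1.189). The causes were not tested. Wheel mouse 4 has all 4 ranking genes at the floor.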

How the results depend on the processing

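The count of 0 genes past an adjusted p of 0.05 between the highest and lowest mice became 60 with the score as a slope over all 22 mice and ranged from 0 to 2 when each mouse was left out. Genes higher at an unadjusted p under 0.05 (1211) became 761 with upper-quartile scaling, 707 when ranked on S100a8 and S100a9 alone, 710 without the mice high in the lymphocyte list and 763 with that list as a covariate, and ranged from 805 to 1456 without each mouse. Genes lower (542) became 999 with upper-quartile scaling, 987 with the 8 highest against the 8 lowest and 1063 with the slope over 22 mice, and ranged from 433 to 699. With the replicate number as a replicate block these counts were 322 higher and 183 lower, the clodronate count was 11, and the differences of Myh4, Krt10, Krt14 and Krt5 turned to -0.00211, -0.00326, -0.228 and -0.130. Mice with the same number share only that number. Between highest and lowest mice the block takes its difference from numbers 1, 2 and 4, the only numbers found in both groups. Over 21 same-numbered pairs r across genes, which are not independent, ran from -0.388 to 0.517, and 10 were over 0.1. The count on the slope in the 10 mice between (0) became 87 with no pseudocount and ranged from 0 to 317. The clodronate count (31) became 12 with upper-quartile scaling and ranged from 9 to 146. The counts of 0 for wheel and interaction stayed at 0 to 0 without each mouse. Ranked on S100a8 and S100a9 alone, 1 of the highest mice had a wheel. Pglyrp1 turned to -0.0408 without the lymphocyte-high mice and -0.124 with the lymphocyte covariate, and Cybb to -0.0143 with that covariate. With the keratinocyte covariate Krt14 and Krt5 turned to -0.0839 and -0.141. In each case the cause was not tested. Of 1590 values of the 55 named genes under an alternative, 1566 kept their direction and side of the threshold, 15 went past it and 9 turned. The lymphocyte and keratinocyte covariates and the list values recomputed without the lymphocyte-high mice were chosen after seeing the data. Not run were a test on recovered reads, since the floor hides low counts, and a fit on mice ranked on Csf3r and Cxcr2 alone, since mice tied at the border. Levels under 13 to 20 reads per gene were hidden by the floor.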
